A study of Mus musculus with 6 samples.

Results

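The AP-1 and immediate early transcription factors were examined in precipitates of tagged ribosomes from the injured mouse spinal cord. The members were 10 genes chosen by symbol: Fos, Fosb, Fosl1, Fosl2, Jun, Junb, Jund, Atf3, Egr1 and Nr4a1. Of these, 9 had a row among the 13960 rows of the table of all genes, and all 9 were among the 13042 genes tested. Jund has no row in that table.

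Both groups were chimeras labelled LysMCre:Rplfl/fl > CD45.1 with a contusive injury at T8, taken at 3 days (3 libraries) or 7 days (3 libraries) after injury. LysMCre is active in macrophages and in other myeloid cells such as neutrophils, and it switches on an epitope tag on a ribosomal protein, so that ribosome-bound RNA can be precipitated from the cells that carry the tag. The labels do not say which side of the chimera gave the marrow, and a chimera can keep blood and resident cells of its host. Every group had the injury, no uninjured cord or unprecipitated RNA was analysed here, the age and sex of the animals are not given in the sources used here, and nothing in the labels ties a library to a single animal.

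AP-1 is a dimer of basic leucine zipper proteins that binds DNA next to genes of growth, stress and inflammation. Jun proteins pair with each other or with Fos proteins, whereas Fos proteins need a Jun partner, and Atf3 is a related zipper protein that can pair with Jun and often represses its targets. The genes Fos, Egr1 and Nr4a1 are transcribed within minutes of a stimulus from factors already present in the cell, and their RNAs decay quickly. In macrophages they are known for the first wave of the response to microbial or injury signals.

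The promoters of Fos, Jun and Atf3 are shown because these 3 genes differ in the result: Fos fell, Jun did not pass the test, and Atf3 rose. Windows of 8 of the 10 members were taken from the RefSeq table (build GRCm38.p6, to which mm10 corresponds). Each sequence runs 5′ to 3′ from 250 bases before the transcription start through the first 50 bases after it. Capitals mark a match to one of the motifs described next.

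Fos, chr12:85473640-85473939, plus strand: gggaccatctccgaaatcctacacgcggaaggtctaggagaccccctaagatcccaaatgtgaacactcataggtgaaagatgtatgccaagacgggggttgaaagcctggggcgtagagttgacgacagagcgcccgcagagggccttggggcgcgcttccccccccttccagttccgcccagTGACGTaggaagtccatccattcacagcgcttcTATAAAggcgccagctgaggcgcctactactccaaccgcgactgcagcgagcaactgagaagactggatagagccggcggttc

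Jun, chr4:95052173-95052472, minus strand: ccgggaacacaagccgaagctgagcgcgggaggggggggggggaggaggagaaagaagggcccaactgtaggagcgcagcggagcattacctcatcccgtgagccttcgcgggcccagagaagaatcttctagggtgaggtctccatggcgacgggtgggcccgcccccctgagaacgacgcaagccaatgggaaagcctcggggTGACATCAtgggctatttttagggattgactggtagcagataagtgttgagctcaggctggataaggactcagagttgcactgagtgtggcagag

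Atf3, chr1:191183284-191183583, minus strand: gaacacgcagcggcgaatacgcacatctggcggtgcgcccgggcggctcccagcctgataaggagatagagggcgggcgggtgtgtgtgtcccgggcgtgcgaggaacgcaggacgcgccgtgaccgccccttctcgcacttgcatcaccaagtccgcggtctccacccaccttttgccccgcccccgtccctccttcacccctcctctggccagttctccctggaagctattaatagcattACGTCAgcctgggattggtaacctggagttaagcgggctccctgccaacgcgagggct

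The motifs, chosen after several had been looked at in these windows, were searched on both strands. The letters TGACGT, the core of the cAMP response element that CREB and ATF proteins bind, stood 66 bases before the start in Fos and, on the opposite strand, 8 bases before the start in Atf3. They occur in 7.51% of all 32851 promoters of this length. The variant TGACATCA stood 45 bases before the start in Jun and occurs in 3.62% of promoters. The TATA motif TATAAA stood 33 bases before the start in Fos and at the start itself in Junb, against 13.6% of promoters. The Egr motif GCGNGGGCG was found in Fosb (50 bases before the start), Fosl2 (79 bases) and Nr4a1 (60 bases, opposite strand), against 5.55% of promoters. This motif is made of G and C, which form 68.3%, 64.7% and 72.3% of those windows. The median over all promoters is 52.7%, and the part of base content in these matches was not tested. The full element TGACGTCA, which contains the core, is in 1.79% of promoters and was in none of the 8 member windows. The AP-1 motif TGANTCA (7.81% of promoters) and the CArG box of serum response factor (1.63%) were also in none of the 8. No window of Egr1 or Fosl1 was among the 8, so nothing is said of their promoters. The Jund window (chromosome 8, 70697489 to 70697788) ends before the GENCODE M21 start of Jund (70698949). Its lack of matches therefore does not describe that start. The windows of Atf3, Fosl2 and Nr4a1 lie inside the GENCODE spans of these genes, away from their outer starts, which were not searched. A match is a run of letters and not a measured site, and enhancers outside these windows were not searched.

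Of the 9 members tested, 6 were lower at 7 days, 1 was higher and 2 were not called, with calls made where the Benjamini-Hochberg adjusted p of limma, over all genes, was at most 0.05. Of all 13042 genes tested, 20.3% were called lower, 18.8% higher and 39.1% in either direction. The median difference of log2(FPKM + 1), 7 days minus 3 days, was -0.59 over the 9 members and -0.04 over all tested genes. The values of the times did not overlap for 8 of the 9 members, and for 55.4% of all tested genes. With 3 libraries a time, the smallest exact two-sided p is 0.1, and limma reaches smaller ones by borrowing variance across genes. In the authors' deposited table, all 9 members had a q-value of 0.05 or less, as did 38.4% of the tested genes. The count of lower members was 3 without 7-day replicate 1, 4 without 7-day replicate 2 and 4 without 7-day replicate 3. Over all 13042 genes tested, lower calls numbered 1788, 1697 and 1837 in these settings, beside 2645 with every library kept.

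**Figure D1:**
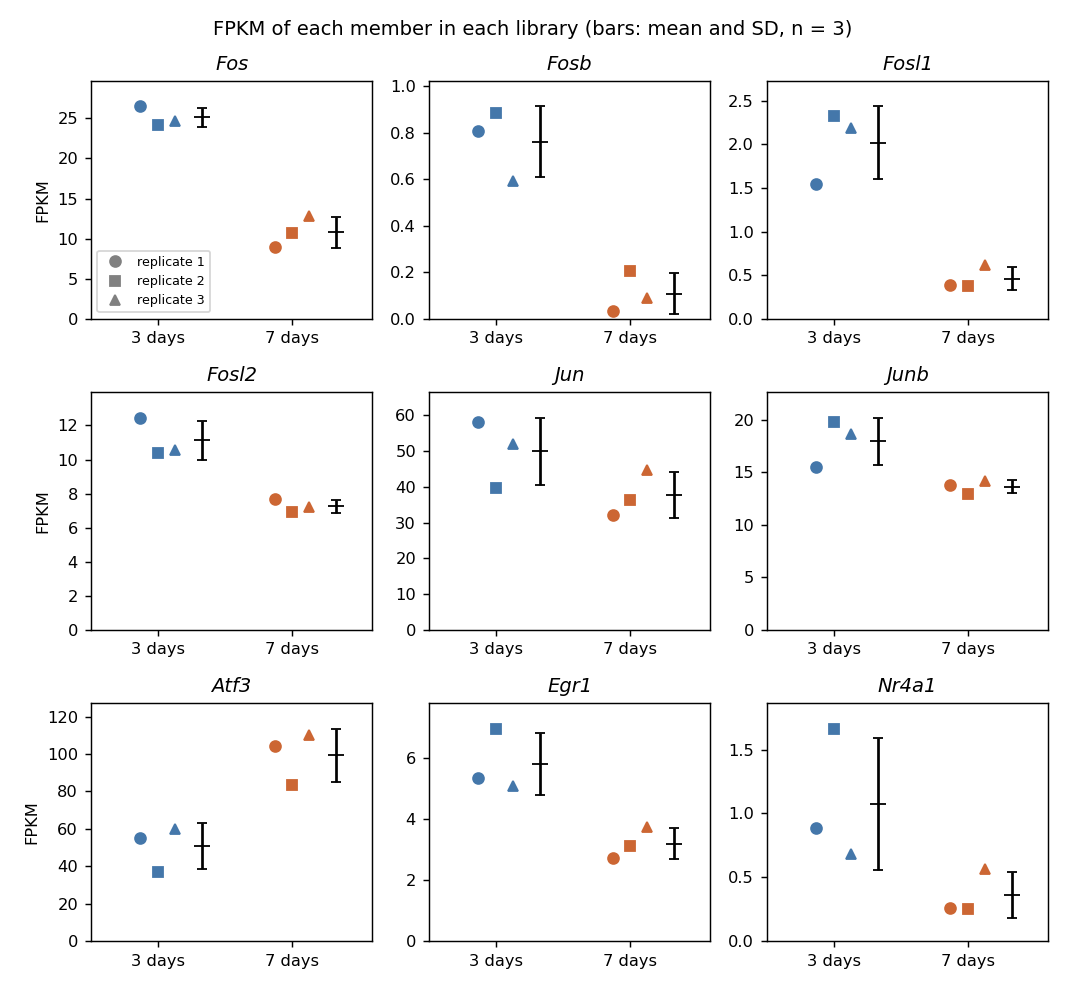
FPKM (vertical axis, from 0, its own scale in each panel) of the 9 members in each library at 3 days (blue) and 7 days (orange). Symbols are replicates and black bars are the mean and SD of 3 libraries. The times do not overlap for any member but Jun, and Atf3 is the member that lies higher at 7 days.

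Levels are given in FPKM, a fragment count scaled to transcript length and to the library's mapped fragments, so that members of different length can be set side by side. At 3 days Atf3 (50.8 FPKM) and Jun (50.001 FPKM) led and their libraries overlapped. They were followed by Fos, Junb, Fosl2 and Egr1, each of which lay above the next in every library. Fosl1, Nr4a1 and Fosb came last, at 2.02, 1.08 and 0.762 FPKM, with overlapping libraries between neighbours. At 7 days Atf3 stood alone at 99.4 FPKM, Jun followed at 37.7 FPKM, and Junb (13.6 FPKM) lay above Fos (10.8 FPKM) in every library, the reverse of their order at 3 days. Fosl1 and Nr4a1 overlapped again, and Fosb was lowest. By its mean over the 6 libraries, Atf3 lay above 92.8% of the tested genes and Jun above 86.6%, whereas Fosb lay above 6.77% and Nr4a1 above 11.7%.

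Fos, the founding member of its family and the one that carries strong activation domains, fell. It measured 26.5, 24.2 and 24.7 FPKM in 3-day replicates 1 to 3 and 8.93, 10.7 and 12.8 FPKM in 7-day replicates 1 to 3. Every 3-day library lay above every 7-day library. The mean fell from 25.1 ± 1.21 to 10.8 ± 1.92 FPKM (SD, n = 3), which is 2.33-fold lower. The difference on the log2(FPKM + 1) scale was -1.16 ± 0.14 (SE; limma adjusted p = 0.00121). The authors' table places Fos on mm10 chromosome 12, 85473948 to 85477658.

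Fosl1, also called Fra-1, lacks the activation domain of Fos and is known as a late member of the response. It had 1.55, 2.32 and 2.19 FPKM at 3 days and 0.388, 0.374 and 0.614 FPKM at 7 days, so that the times were apart. The mean fell from 2.02 ± 0.415 to 0.459 ± 0.135 FPKM, 4.41-fold (log2 difference -1.05 ± 0.18, SE; limma adjusted p = 0.00473; chromosome 19, 5447904 to 5455795). The authors' filtered table, which holds the other 8 members with a row, does not list Fosl1. Its log2 difference was -0.49 with quantile normalization (limma adjusted p = 0.0450) and -1.93 with a pseudocount of 0.1, called in both.

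Fosl2, or Fra-2, the relative with the higher level, fell less. Its libraries measured 12.5, 10.4 and 10.6 FPKM at 3 days and 7.66, 6.91 and 7.19 FPKM at 7 days. The mean fell from 11.1 ± 1.15 to 7.25 ± 0.383 FPKM, 1.54-fold (log2 difference -0.55 ± 0.12, SE; limma adjusted p = 0.0120; chromosome 5, 32135739 to 32158345). The 3-day libraries were all higher, and replicates agreed most closely at 7 days.

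Fosb, a Fos relative best known from stimulated neurons, was near the floor of the table at both times. It had 0.808, 0.885 and 0.593 FPKM at 3 days and 0.0316, 0.204 and 0.0869 FPKM at 7 days. The means were 0.762 ± 0.152 and 0.107 ± 0.0879 FPKM, 7.09-fold lower at 7 days (chromosome 7, 19304647 to 19310045). The 7-day mean rests largely on replicate 2, and without that library the ratio of the means was 12.9. On the log2(FPKM + 1) scale, which understates the change of genes below 1 FPKM, the difference was -0.67 ± 0.17 (SE; limma adjusted p = 0.0194). It was -2.12 with a pseudocount of 0.1, and -0.16 with quantile normalization (adjusted p = 0.441), where the call was lost; the call was also lost without 7-day replicate 1 or without 7-day replicate 3.

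Jun, the main Jun protein of AP-1 and a target of its own product, was not called. It measured 58.2, 39.7 and 52.1 FPKM at 3 days and 32.2, 36.2 and 44.7 FPKM at 7 days. The highest 7-day library lay above the lowest 3-day library, 3-day replicate 2, so the times overlapped. The means were 50.001 ± 9.39 and 37.7 ± 6.36 FPKM, with a log2 difference of -0.39 ± 0.17 (SE; limma adjusted p = 0.107; chromosome 4, 95048461 to 95052342). Without 3-day replicate 2 the difference was -0.55 (adjusted p = 0.0435), and with quantile normalization it was -0.60 (adjusted p = 0.0343), both called. The authors' deposited q-value for Jun was 0.0145.

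Junb, a Jun relative that activates more weakly and can oppose Jun, had the smallest change of the called members. It had 15.5, 19.8 and 18.6 FPKM at 3 days and 13.8, 12.9 and 14.2 FPKM at 7 days, which do not overlap although 3-day replicate 1 is close to the 7-day libraries. The mean fell from 18.0 ± 2.24 to 13.6 ± 0.638 FPKM, 1.32-fold (log2 difference -0.37 ± 0.12, SE; limma adjusted p = 0.0465; chromosome 8, 84976763 to 84979232). The call was lost in 8 of 13 alternative settings, with adjusted p up to 0.133, among them 5 of the 6 in which 1 library was left out; without 3-day replicate 1 it held (adjusted p = 0.0195).

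Jund, the Jun protein that resting cells hold most steadily, could not be measured. A row named Gm11175, an antisense gene annotated within the span of Jund on chromosome 8 (70699162 to 70700080, GENCODE M21), had 10.5, 8.63 and 10.3 FPKM at 3 days and 7.75, 13.1 and 11.5 FPKM at 7 days. These libraries overlapped and the row was not called (limma adjusted p = 0.694). Whether the counting used the strand of the reads is not given in the sources used here, so reads of Jund and of Gm11175 cannot be told apart, and the row is no measure of either gene. In the same annotation an antisense or opposite gene also overlaps Jun (Junos, 689 bases, no row in the table), Atf3 (Gm24748, 108 bases, no row), Junb (Prdx2, 351 bases) and Fosl1 (Ccdc85b, 2767 bases). Prdx2 (61.4 ± 8.74 and 73.0 ± 9.86 FPKM) and Ccdc85b (3.17 ± 0.284 and 2.95 ± 0.141 FPKM) were not called, and their loci in the authors' table do not overlap those of Junb and Fosl1.

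Atf3, a stress-induced factor of the ATF family that limits inflammatory genes in macrophages, was the member that rose. It measured 55.3, 37.0 and 60.1 FPKM at 3 days and 104, 83.4 and 110 FPKM at 7 days. Every 7-day library lay above every 3-day library, and 3-day replicate 2 was lowest. The mean rose from 50.8 ± 12.2 to 99.4 ± 14.1 FPKM, 1.96-fold (log2 difference 0.97 ± 0.20, SE; limma adjusted p = 0.00831; chromosome 1, 191169469 to 191183373). Over 13 alternative settings the difference lay between 0.75 and 1.11 with adjusted p up to 0.0351, so the call held in each of them.

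Egr1, a zinc finger factor induced through serum response factor and a driver of macrophage differentiation, fell. It had 5.37, 6.97 and 5.08 FPKM at 3 days and 2.72, 3.12 and 3.74 FPKM at 7 days, with no overlap. The mean fell from 5.80 ± 1.02 to 3.20 ± 0.512 FPKM, 1.82-fold (log2 difference -0.69 ± 0.17, SE; limma adjusted p = 0.0175; chromosome 18, 34861284 to 34865051). The call was lost with quantile normalization (adjusted p = 0.0692), without 7-day replicate 1 (0.0609) and without 7-day replicate 2 (0.0563).

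Nr4a1, or Nur77, an orphan nuclear receptor needed by patrolling monocytes, was low and not called. It had 0.884, 1.66 and 0.680 FPKM at 3 days and 0.254, 0.252 and 0.565 FPKM at 7 days. The times did not overlap, but 3-day replicate 2 held far more than the other two 3-day libraries. The means were 1.08 ± 0.519 and 0.357 ± 0.180 FPKM, with a log2 difference of -0.59 ± 0.23 (SE; limma adjusted p = 0.0725; chromosome 15, 101268046 to 101272286). It was called in none of 12 alternative settings, in which adjusted p ran from 0.0528 to 0.872. The difference was -0.04 with quantile normalization and -1.34 with a pseudocount of 0.1. The authors' deposited q-value for Nr4a1 was 0.0142.

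**Figure D2:**
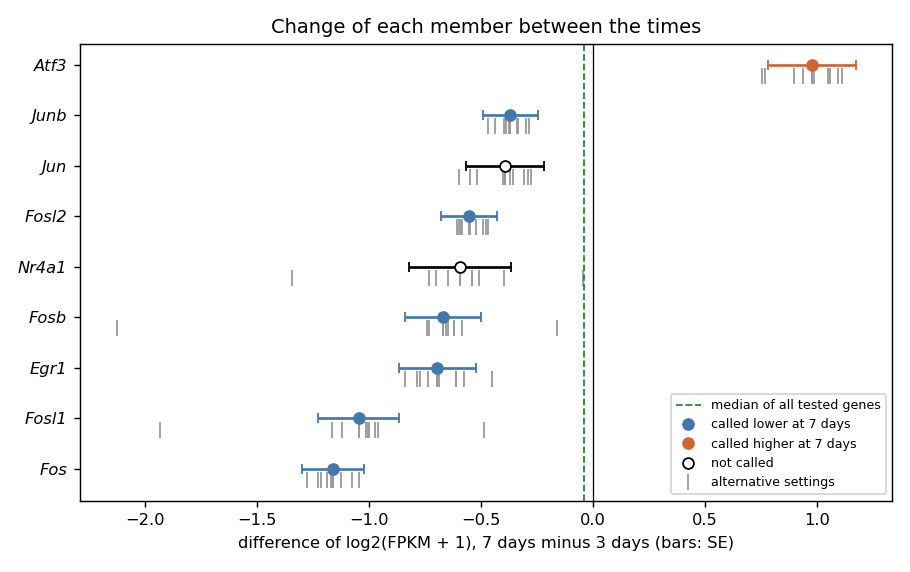
Difference of log2(FPKM + 1), 7 days minus 3 days, for each member with its SE (horizontal bars). Filled points passed the adjusted p threshold of 0.05, open points did not, grey marks are the alternative settings, and the dashed line is the median of all tested genes (-0.04). The settings spread most for Fosb, Fosl1 and Nr4a1, the 3 members with the lowest FPKM.

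The members were also summed by family in each library, as a description with no test. The Fos family (Fos, Fosb, Fosl1 and Fosl2) summed to 41.3, 37.7 and 38.1 FPKM at 3 days and to 17.0, 18.2 and 20.6 FPKM at 7 days. The measured Jun family (Jun and Junb, without Jund) summed to 73.6, 59.5 and 70.7 FPKM at 3 days and to 46.0, 49.2 and 58.9 FPKM at 7 days. Every 3-day sum lay above every 7-day sum in both families, by a narrow gap for Jun. The ratio of the Fos to the Jun sum was 0.578 ± 0.0499 at 3 days and 0.363 ± 0.0111 at 7 days (SD, n = 3).

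Within the Fos family the share of Fos itself was 64.4% ± 0.485 at 3 days and 57.7% ± 4.75 at 7 days. The share of Fosl2 was 28.5% ± 1.48 and 39.3% ± 5.24, and that of Fosb and Fosl1 together was 7.17% ± 1.41 and 3.01% ± 0.487. The shares of the 3 groups did not overlap between the times. Jun made up 73.1% ± 6.13 of the Jun sum at 3 days and 73.2% ± 2.93 at 7 days, within the spread of the libraries. The level of Atf3 relative to Jun was 0.950, 0.930 and 1.15 at 3 days and 3.24, 2.30 and 2.47 at 7 days. Relative to Fos it was 2.09, 1.53 and 2.43 at 3 days and 11.7, 7.80 and 8.65 at 7 days. Both ratios were higher in each 7-day library than in any 3-day library, and a ratio within a library does not change when that library is rescaled.

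**Figure D3:**
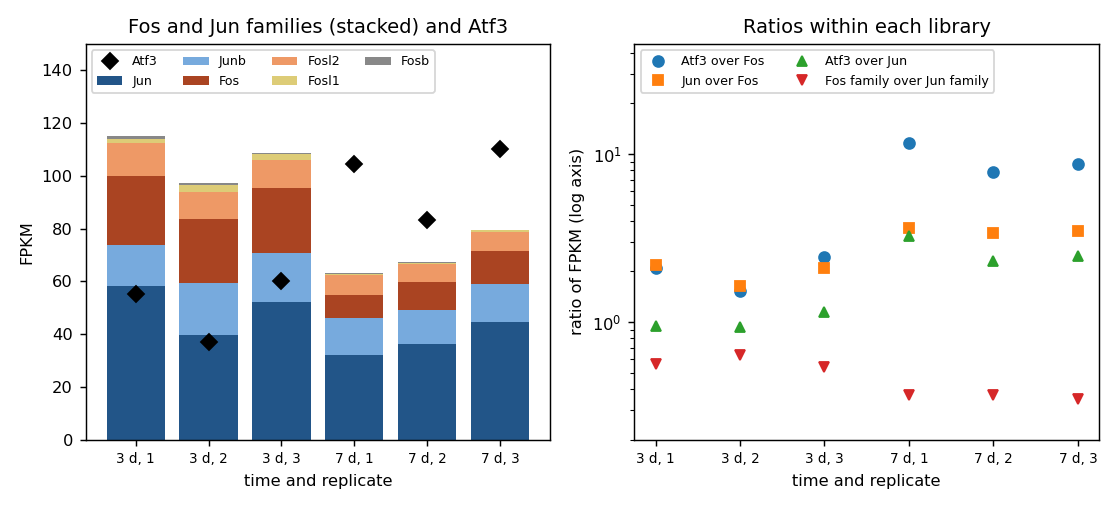
Left, stacked FPKM of the Fos and Jun families and FPKM of Atf3 (diamonds) in each library, named by time and replicate. Right, ratios of FPKM within each library on a log axis. Atf3 lies below the stacked families in each 3-day library and above them in each 7-day library.

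A marker check of the libraries bears on these values. The 7 tested macrophage markers summed to 1303 to 1490 FPKM at 3 days and 1373 to 1410 FPKM at 7 days, with 3 called higher and 2 lower. Microglia markers (7 of 8 called higher, 0 lower) went from 788 to 987 FPKM at 3 days to between 2341 and 2578 FPKM at 7 days. Inflammatory monocyte markers (6 of 9 lower, 0 higher) went from 493 to 572 FPKM to between 195 and 249 FPKM. Neuron markers (12 of 12 lower) summed to 189 to 453 FPKM at 3 days and 64.7 to 80.3 FPKM at 7 days, astrocyte markers (5 of 8 lower) to 218 to 613 and 117 to 147 FPKM, and oligodendrocyte markers (10 of 10 lower) to 315 to 635 and 133 to 160 FPKM. Endothelial markers (6 of 8 lower, 1 higher) summed to 43.5 to 70.7 and 26.8 to 31.6 FPKM, fibroblast and pericyte markers (4 of 7 lower) to 128 to 307 and 114 to 204 FPKM, and neutrophil markers (2 of 7 lower, 1 higher) to 49.4 to 54.1 and 31.4 to 49.1 FPKM. Of all these markers, Mpo of the neutrophil list was at 0 in every 7-day library and none was at 0 in all 6 libraries. In such bulk precipitates, fewer cells of a type, less RNA per cell and less RNA carried over from cells without the tag cannot be told apart. The part of these cell types in the members' changes was not tested.

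The library with the most neuron (453 FPKM), astrocyte (613 FPKM) and oligodendrocyte (635 FPKM) marker RNA was 3-day replicate 2. Fosb, Fosl1, Junb, Egr1 and Nr4a1 were higher there than in the other 3-day libraries. Fos, Fosl2, Jun and Atf3 were lower there than in the other 3-day libraries. Some gaps to the next library were narrow: 24.2 against 24.7 FPKM for Fos, 10.4 against 10.6 for Fosl2 and 2.32 against 2.19 for Fosl1. Others were wider, as for Nr4a1 (1.66 against 0.884 FPKM) and Atf3 (37.0 against 55.3 FPKM). The share of all tested genes that were highest or lowest there was not counted. A link to the marker RNA was not tested. Without that library 6 members were again lower and 1 higher: Jun (log2 difference -0.55) was then called, and Junb (-0.30, limma adjusted p = 0.102) was not. The other differences without it were -1.19 for Fos, -0.97 for Fosl1, -0.60 for Fosl2, -0.62 for Fosb, -0.58 for Egr1, -0.40 for Nr4a1 (not called, limma adjusted p = 0.110) and 0.77 for Atf3.

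**Figure D4:**
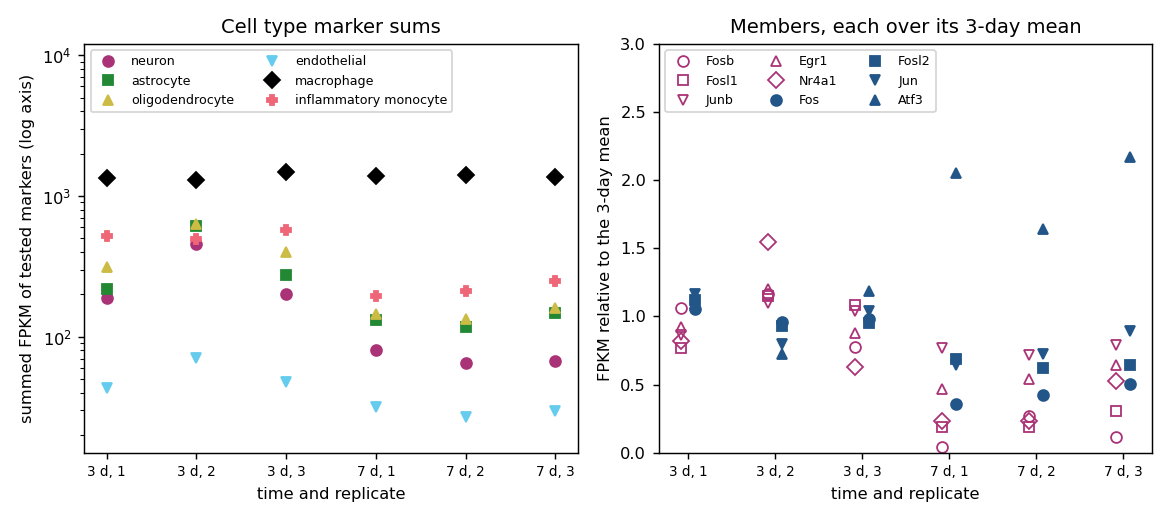
Left, summed FPKM of the tested markers of 6 cell types in each library on a log axis. Right, each member's FPKM divided by its mean at 3 days; open symbols are the 5 members that are highest at 3 days in replicate 2, and filled symbols are the 4 that are lowest there. Neuron, astrocyte and oligodendrocyte sums peak in 3-day replicate 2, and macrophage sums are level.

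Other immediate early genes were described from a list of 37, of which 32 were tested: 15 were lower, 5 higher and 12 not called, with a median log2 difference of -0.56. That is 15.6% called higher and 46.9% lower, against 18.8% and 20.3% of all tested genes. Over 13 alternative settings the count of lower genes ran from 10 to 15. Klf2, a Krüppel-like factor that restrains inflammatory activation, fell from 33.4 ± 1.44 to 5.01 ± 0.547 FPKM (log2 difference -2.52 ± 0.11). Phlda1 fell from 8.54 ± 1.09 to 0.939 ± 0.591 FPKM (-2.34 ± 0.25). Ctgf, a matricellular growth factor partner, fell from 14.3 ± 7.80 to 2.08 ± 0.366 FPKM (-2.21 ± 0.32). Its 3-day mean was raised by replicate 2 (23.3 FPKM, against 9.71 and 9.95 FPKM), although the times did not overlap. Gadd45a, a stress sensor of growth arrest, rose from 21.9 ± 2.23 to 73.1 ± 2.75 FPKM (1.70 ± 0.10), and the kinase Plk2 rose from 19.4 ± 2.59 to 43.8 ± 6.22 FPKM (1.13 ± 0.14).

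Of the closest relatives of Egr1 and Nr4a1 on that list, only Egr2 and Nr4a2 were tested, and Egr3, Egr4 and Nr4a3 had no row. Egr2, a paralog of Egr1 linked to alternatively activated macrophages, rose from 1.56 ± 0.228 to 4.21 ± 1.17 FPKM (1.00 ± 0.20, SE; limma adjusted p = 0.00791), whereas Egr1 fell. Nr4a2, a paralog of Nr4a1, had 0.991 ± 0.409 and 0.391 ± 0.158 FPKM and was not called (limma adjusted p = 0.0884). Zfp36, or tristetraprolin, which speeds the decay of AU-rich RNAs of the immediate early kind, fell from 19.6 ± 2.13 to 8.80 ± 0.501 FPKM (-1.07 ± 0.12).

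Of 29 tested AP-1 partners and other basic leucine zipper factors, 7 were higher, 5 lower and 17 not called, with a median log2 difference of 0.12. The shares called, 24.1% higher and 17.2% lower, lie near the 18.8% and 20.3% of all tested genes. With quantile normalization 7 were higher and 2 lower, with median centring 8 and 3, and without 7-day replicate 2 they were 6 and 2; without 3-day replicate 2 the count of higher genes was 4. Nfe2l2, or Nrf2, the master factor of antioxidant genes, rose from 68.8 ± 4.81 to 140 ± 9.18 FPKM (1.02 ± 0.10). Batf3, which pairs with Jun proteins in dendritic cells, rose from 2.23 ± 0.683 to 5.61 ± 2.21 FPKM (1.00 ± 0.29), and Ddit3, or CHOP, a factor of the unfolded protein response, rose from 20.2 ± 2.21 to 34.9 ± 8.16 FPKM (0.74 ± 0.17). Cebpb, a driver of inflammatory and emergency myelopoiesis genes, fell from 54.5 ± 23.2 to 18.3 ± 3.94 FPKM (-1.46 ± 0.31). The locus given for Cebpb runs from 167642174 to 167690432 on chromosome 2, where overlap with other genes was not checked. Cebpd fell from 8.87 ± 1.62 to 3.86 ± 0.647 FPKM (-1.02 ± 0.17) and Atf7 from 16.2 ± 4.45 to 9.47 ± 0.977 FPKM (-0.69 ± 0.20). The count of lower genes on this list was 2 when 3-day replicate 3 was dropped, and 3 when any one of 3-day replicate 1, 7-day replicate 1 and 7-day replicate 3 was dropped. The Jun partners Batf (12.5 ± 2.43 and 13.6 ± 1.39 FPKM) and Jdp2 (20.9 ± 6.44 and 19.5 ± 1.47 FPKM) were not called.

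Of the kinases and factors upstream, 29 MAP kinase and serum response genes were tested, of which 7 were higher, 4 lower and 18 not called (median log2 difference 0.15). The shares called were 24.1% higher and 13.8% lower, against 18.8% and 20.3% of all tested genes. The p38 activator Map2k6 rose from 2.26 ± 0.403 to 6.38 ± 1.28 FPKM (1.17 ± 0.18), Map3k1 from 22.5 ± 2.02 to 40.0 ± 3.32 FPKM (0.81 ± 0.11) and the ribosomal S6 kinase Rps6ka1 from 25.6 ± 2.72 to 36.2 ± 2.06 FPKM (0.49 ± 0.11). The Jun N-terminal kinase Mapk8 fell from 19.3 ± 3.87 to 9.94 ± 1.67 FPKM (-0.88 ± 0.18), the p38 isoform Mapk11 from 1.81 ± 0.436 to 0.356 ± 0.180 FPKM (-1.05 ± 0.20) and Map2k3 from 20.0 ± 3.66 to 10.9 ± 1.05 FPKM (-0.81 ± 0.15). Srf, the serum response factor that drives Fos and Egr1, had 3.12 ± 0.434 and 4.48 ± 0.733 FPKM and was not called (limma adjusted p = 0.0899). The count of higher genes was 4 without 7-day replicate 1, 3 without 7-day replicate 2 and 4 with quantile normalization.

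Of the feedback inhibitors, 19 were tested, with 5 lower, 3 higher and 11 not called (median log2 difference -0.16). The shares called were 15.8% higher and 26.3% lower, again not far from those of all tested genes. Dusp1, the phosphatase that shuts off p38 and JNK and is itself an immediate early gene, fell from 4.36 ± 0.990 to 1.46 ± 0.277 FPKM (-1.12 ± 0.19). Dusp5, which acts on ERK in the nucleus, fell from 2.66 ± 0.323 to 0.719 ± 0.135 FPKM (-1.09 ± 0.16), and the Ras pathway inhibitor Spred2 from 12.5 ± 1.83 to 5.61 ± 0.649 FPKM (-1.03 ± 0.15). Dusp3 rose from 42.6 ± 4.41 to 79.9 ± 4.83 FPKM (0.90 ± 0.11). Fbxw7 and Itch, ubiquitin ligases known to mark Jun proteins for degradation, were higher at 7 days. Fbxw7 had 20.6 ± 2.65 and 33.1 ± 4.63 FPKM (0.66 ± 0.14), and Itch had 50.1 ± 3.42 and 67.3 ± 3.58 FPKM (0.42 ± 0.09).

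Of 26 tested genes known as targets of AP-1 or Egr1, 17 were lower, 3 higher and 6 not called, with a median log2 difference of -0.65. That is 11.5% called higher and 65.4% lower, against 18.8% and 20.3% of all tested genes. Over 13 alternative settings the count of lower genes ran from 12 to 19. The chemokine Cxcl10 fell from 34.6 ± 7.89 to 3.11 ± 0.646 FPKM (-3.10 ± 0.19) and the monocyte chemoattractant Ccl2 from 196 ± 69.3 to 26.7 ± 6.67 FPKM (-2.80 ± 0.26), although genes of the Ccl family have close copies and are uncertain. Timp1, an inhibitor of matrix metalloproteinases, fell from 35.9 ± 14.3 to 5.78 ± 1.91 FPKM (-2.41 ± 0.33). It was highest in 3-day replicate 2 (50.5 FPKM, against 21.9 and 35.2 FPKM), and the times did not overlap. The locus given for Timp1 runs from 20852997 to 20920912 on chromosome X. Overlap with other genes was not checked there. Itgax, the integrin CD11c, rose from 12.1 ± 0.931 to 36.9 ± 4.28 FPKM (1.52 ± 0.12), the urokinase gene Plau from 63.4 ± 2.74 to 151 ± 8.68 FPKM (1.23 ± 0.09) and Icam1 from 13.1 ± 0.974 to 19.1 ± 0.688 FPKM (0.51 ± 0.10). These genes answer to other factors too, and nothing here measures which factor acts on them. The adjusted p of the genes named from these lists was 0.05 or less except where a gene is said not to be called.

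**Figure D5:**
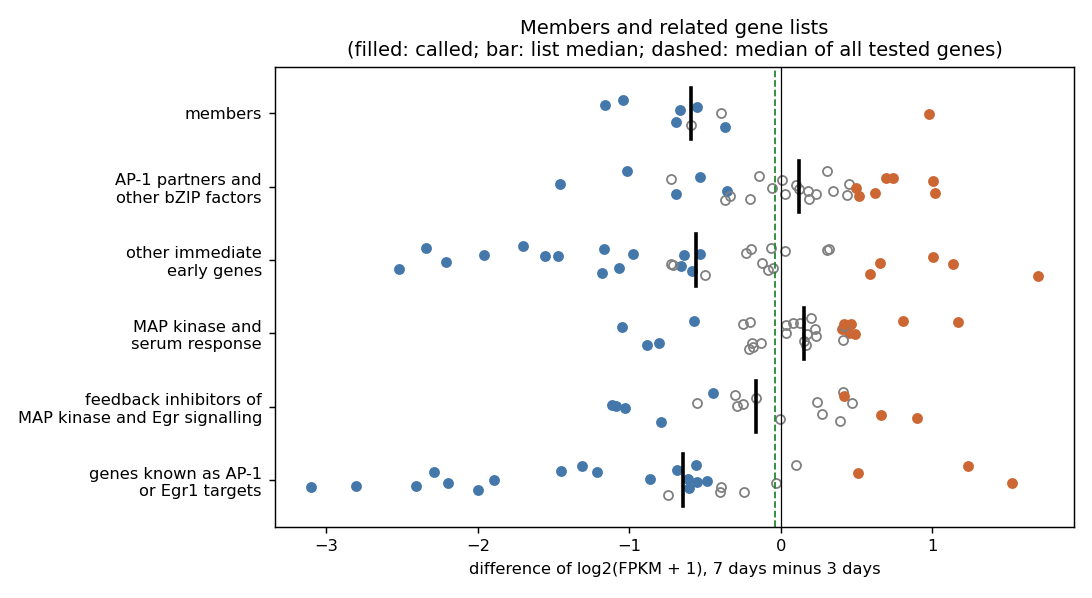
Difference of log2(FPKM + 1), 7 days minus 3 days, of the members and of the tested genes of 5 related lists. Filled points were called (blue lower, orange higher), open points were not, black bars are list medians and the dashed line is the median of all tested genes. The medians of the members (-0.59), other immediate early genes (-0.56) and AP-1 or Egr1 targets (-0.65) lie on the lower side, and those of the bZIP (0.12) and MAP kinase (0.15) lists do not.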

How the data were processed

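RNA of RiboTag precipitates was sequenced from ScriptSeq v2 libraries, per the labels' protocols. The submitters' processing notes name TopHat2 2.0.12, Cufflinks 2.2, Cuffdiff 2.2.1 and mm10, with no role or order. The authors deposited FPKM per gene and library, mean FPKM per time, a log2 fold change, a test statistic (a score, not used here), and a p-value and q-value; scaling between libraries is not given in the sources used here, and the number of reads behind a gene is unknown.

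Rows were set aside before testing where the status was not OK, library values missed the deposited mean by over 1%, a library at 0 stood beside 100 FPKM or more, or a symbol was repeated (918 rows). FPKM was transformed as log2(FPKM + 1) and fitted with limma 3.58.1 (R 4.3.3, mean-dependent prior variance, two-sided, Benjamini-Hochberg over 13042 genes), 7 days minus 3 days, without a filter on low values. The fit was also run on simulated data with independent normal errors and no shared library effects. Known changes were placed only in genes with a mean log2(FPKM + 1) above 1, so that run does not bear on Fosb or Nr4a1. The 3-day libraries held 11147, 11675 and 11258 genes at 1 FPKM or more, and the 7-day libraries 10248, 10280 and 10402. These counts did not overlap between the times, and their link to the members' changes was not tested. P-values measure only how these libraries vary, which may be technical.

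The members and the 5 pathway and 9 marker lists were chosen with earlier results of these data known. Members are not counted in the pathway lists. All members are named; of each pathway list, the 3 called genes with the largest change in each direction and a mean of 1 FPKM or more at one time are named. Zfp36, Nr4a2, Batf, Jdp2 and Srf, and those in the closing section, were named outside that rule, after values were seen. Same-numbered libraries were compared for pairing; promoters came from RefSeq.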

Additional observations from a re-analysis of the deposited data

How the results depend on the processing

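The 9 members were refitted under 13 alternatives: a pseudocount of 0.1, a minimum mean of 1 FPKM, quantile normalization, median centring, a replicate block, no mean-dependent prior variance, the genes of the authors' filtered table, and each library left out. The minimum of 1 FPKM left out Fosb and Nr4a1, and the filtered table left out Fosl1, so these gave no value there. No member changed direction. Fos, Fosl1, Fosl2 and Atf3 stayed called in every setting that fitted them. The labels number the replicates alike at both times. Deviations of same-numbered libraries from their time's mean correlated with r of 0.115, 0.0096 and 0.0105. Those of differently numbered libraries ran from -0.0626 to 0.0476. So few libraries cannot settle whether the numbers pair them. With the replicate block 5 members were lower and 1 higher, and Junb (-0.37, adjusted p = 0.0633) was lost. The SE of Atf3 was 0.0985 with the block (limma adjusted p = 0.00253) and 0.196 without it (0.00831). Quantile normalization gave -0.16 for Fosb and -0.45 for Egr1, both no longer called, and -0.60 for Jun, now called; it also gave -0.49 for Fosl1, still called, and -0.04 for Nr4a1. Junb also lost its call with median centring (-0.28) and without the mean-dependent prior variance (-0.37). With 1 library left out, the count of lower members ran from 3 to 6 and that of higher members stayed at 1. The log2 differences then ran from -0.74 to -0.62 for Fosb, -0.55 to -0.28 for Jun, -0.47 to -0.30 for Junb and -0.79 to -0.58 for Egr1. The cause of these losses was not tested; leaving a library out also leaves fewer samples. Over all genes, calls moved with the setting: 1809 lower and 2317 higher with quantile normalization, 1419 lower and 2359 higher among 9489 genes of the filtered table, and 1697 lower and 1572 higher without 7-day replicate 2, beside 2645 and 2453.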

Other observations

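Further genes of the same lists, named after their values were seen, moved in both directions. Ier3, an immediate early gene of cell survival, fell from 16.98 ± 0.884 to 4.54 ± 0.569 FPKM (log2 difference -1.70 ± 0.13, SE; limma adjusted p = 2.86e-04), and Klf4, a Krüppel-like factor of monocyte differentiation, from 7.01 ± 0.669 to 2.55 ± 0.0908 FPKM (-1.17 ± 0.14; limma adjusted p = 0.00118). Klf6 rose from 86.8 ± 9.44 to 131 ± 10.6 FPKM (0.59 ± 0.12) and the kinase Sgk1 from 142 ± 6.65 to 224 ± 13.7 FPKM (0.65 ± 0.10). Creb1, a CRE-binding activator, rose from 12.1 ± 1.87 to 19.99 ± 1.57 FPKM (0.69 ± 0.13), and Atf2, a Jun partner, from 11.9 ± 0.279 to 17.4 ± 0.539 FPKM (0.51 ± 0.10). Cebpa, linked to macrophage lineage identity, rose from 31.1 ± 3.55 to 48.3 ± 5.01 FPKM (0.62 ± 0.12), the opposite direction to Cebpb and Cebpd.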
